A study of Homo sapiens with 40 samples.

Results

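BKM120 and BEZ235, a pair of inhibitors of phosphoinositide 3-kinase (PI3K), were compared at the concentration level named IC90 in A2058 cells, an established human melanoma line. The comparison rests on 8 of the 40 arrays of the study. The arrays were picked by their labels, but the comparison was chosen with earlier results of these data known. Of these arrays, 4 were of cells treated once for 24 hours with BKM120 at IC90, which was also the highest (max) level of BKM120. The other 4 were of cells treated in the same way with BEZ235 at IC90. BEZ235 also had a higher level, named max, which is given where it bears on a result, and both compounds had an IC50 level. BKM120 was also given at IC30, and another PI3K inhibitor, GDC0941 (the labels write GCD0941), at 3 levels with 12 arrays. Those arrays enter the fit, and so its estimate of the spread, but not the comparison. The vehicle control was DMSO, with 4 arrays. Each array is labelled as a biological replicate, all cells were of the single A2058 line, and p-values measure only the spread between these samples. No molar concentration, and no response that defines the IC levels, is given in the sources used here, so the compounds are matched by the name of the level only.

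PI3K makes the lipid signal that activates the kinase AKT. AKT keeps FOXO transcription factors out of the nucleus, and through the kinase complex mTORC1 it promotes ribosome production, protein synthesis and the processing of SREBP, the factor that switches on genes of sterol synthesis. BKM120 (buparlisib), a pyrimidine that carries morpholine rings, inhibits the class I PI3K isoforms and is known to bind tubulin at high concentrations. BEZ235 (dactolisib), an imidazoquinoline, inhibits PI3K and the kinase mTOR itself. Mitotic genes are transcribed late in the cell cycle, and their messenger RNA is most abundant in cells in G2 and mitosis.

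Values below are mean log2 signals, computed as log2(signal + 16) from the deposited intensity, with the SD over 4 arrays, or differences of such means, BKM120 at IC90 minus BEZ235 at IC90. Adding 16 shrinks the differences of dim genes. A gene was called higher or lower when limma's adjusted p was under 0.05. Arrays within the BKM120 group correlated at 0.995 to 0.996 and those within the BEZ235 group at 0.994 to 0.996, while pairs across the groups correlated at 0.974 to 0.977. The ratio of 3-prime to 5-prime actin control signal, a measure of RNA integrity and of labelling, was 1.78 ± 0.06 with BKM120 and 2.25 ± 0.05 with BEZ235 (SD, n = 4), with no overlap (2-sided exact permutation test, p = 0.0286, the smallest possible, adjusted p = 0.0429), beside 1.58 to 1.96 in DMSO. The GAPDH ratio was 1.18 in both groups (exact permutation p = 0.486). The median array signal was 15.1 to 15.7 with BKM120, 13.1 to 14.2 with BEZ235 and 12.1 to 15.3 in DMSO. The part of these array properties in the gene differences was not tested. The defining melanoma genes SOX10, PAX3, MITF, S100B, PMEL, MLANA, TYR and VIM were expressed in both groups, and DCT was not analysed here. Among markers of leukocytes, endothelium and red cells, PTPRC, CD3E, CD3D, MS4A1, CD14, VWF, CDH5 and HBB had mean signals of 4.2 or less in both groups. CD79A had 4.58 with BKM120 and 6.88 with BEZ235, PECAM1 13.95 and 14.75, and LYZ, the lysozyme of myeloid cells, 174 and 146. The summed signal of markers of other cell types was 2826 to 2946 with BKM120, 2876.5 to 2968 with BEZ235 and 2815 to 2996 in DMSO. LUM, a fibroblast proteoglycan, with mean signals of 1179 for BKM120 and 1020.5 for BEZ235, and the keratin gene KRT18, with 969 and 1347, gave most of this sum.

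Of 11865 genes tested, 5360 (45.2%) differed between the compounds at IC90. BKM120 had 2195 genes higher (18.5%) and 3165 lower (26.7%) than BEZ235, and 41% of the called genes were therefore higher with BKM120. With the arrays centred on their medians this share was 25.9%. Most differences were small. At least a 2-fold difference was found for 208 genes (1.75%): 125 (1.05%) were higher with BKM120 and 83 (0.7%) lower. In 4810 of the called genes (40.5% of those tested) all 4 values of a group lay beyond all 4 of the other, 1968 on the higher side (16.6%) and 2842 on the lower side (24%). The median difference over all genes tested was -0.04. With BKM120, 4097 genes (34.5%) differed from DMSO, 17.3% higher and 17.3% lower, and with BEZ235, 6523 (55%), 30.8% higher and 24.1% lower. Over the 102 genes followed, standard errors were 0.044 to 0.249, and the highest adjusted p of a called gene was 0.00432. The comparisons with DMSO share the 4 DMSO arrays, and their values for single genes are set side by side below.

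Genes of mitosis and of the spindle formed the group with the largest shift of the 19 gene lists. Of 73 tested members 71 were higher with BKM120, against 18.5% of all genes, BUB3 alone was lower, and TOP2A was not called. The median difference was 0.91, against -0.04 for all genes, and 28 members were higher by at least 2-fold, so they made up 28 of the 125 such genes. With BKM120 64 members were higher than DMSO and 1 lower (median 0.52), and with BEZ235 1 was higher and 55 lower (median -0.40). Of all genes, 17.3% were higher and 17.3% lower than DMSO with BKM120, and 30.8% higher and 24.1% lower with BEZ235. The median deviation of the list from its mean over the 40 arrays was 0.67 to 0.71 in the BKM120 arrays, -0.24 to -0.16 in the BEZ235 arrays and 0.17 to 0.22 in the DMSO arrays. The groups did not overlap, and DMSO lay between the compounds. In these bulk samples a larger share of mitotic cells and more of these messages per cell cannot be told apart.

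GTSE1, which encodes a microtubule-binding protein of G2 and S phase, had log2 signals of 8.52, 8.44, 8.71 and 8.51 with BKM120 and of 6.69, 6.78, 7.04 and 6.74 with BEZ235. Every BKM120 array was well above every BEZ235 array. The difference was 1.73 (SE 0.09, adjusted p = 4.5e-18), with BKM120 at 0.94 and BEZ235 at -0.79 against DMSO. KIFC1, a minus-end kinesin that bundles spindle microtubules, had 9.68, 9.67, 9.68 and 9.68 with BKM120 and 8.35, 8.17, 8.36 and 8.09 with BEZ235. The BKM120 arrays were nearly identical, and the difference was 1.43 (SE 0.13). CDCA8, the borealin subunit of the chromosomal passenger complex, had 9.65, 9.56, 9.68 and 9.71 with BKM120 and 8.20, 8.23, 8.36 and 8.29 with BEZ235, a difference of 1.38 (SE 0.07). PIMREG, a regulator of the metaphase to anaphase transition, differed by 1.47 (SE 0.08). CENPA, the histone H3 variant of the centromere, differed by 1.38, and SGO2, a shugoshin that protects cohesion at centromeres, by 1.37. Each of the 4 values with BKM120 lay above each of the 4 with BEZ235 in these genes, as the rule for naming genes required. Of all genes tested, 40.5% were called without overlap in either direction.

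**Figure D1:**
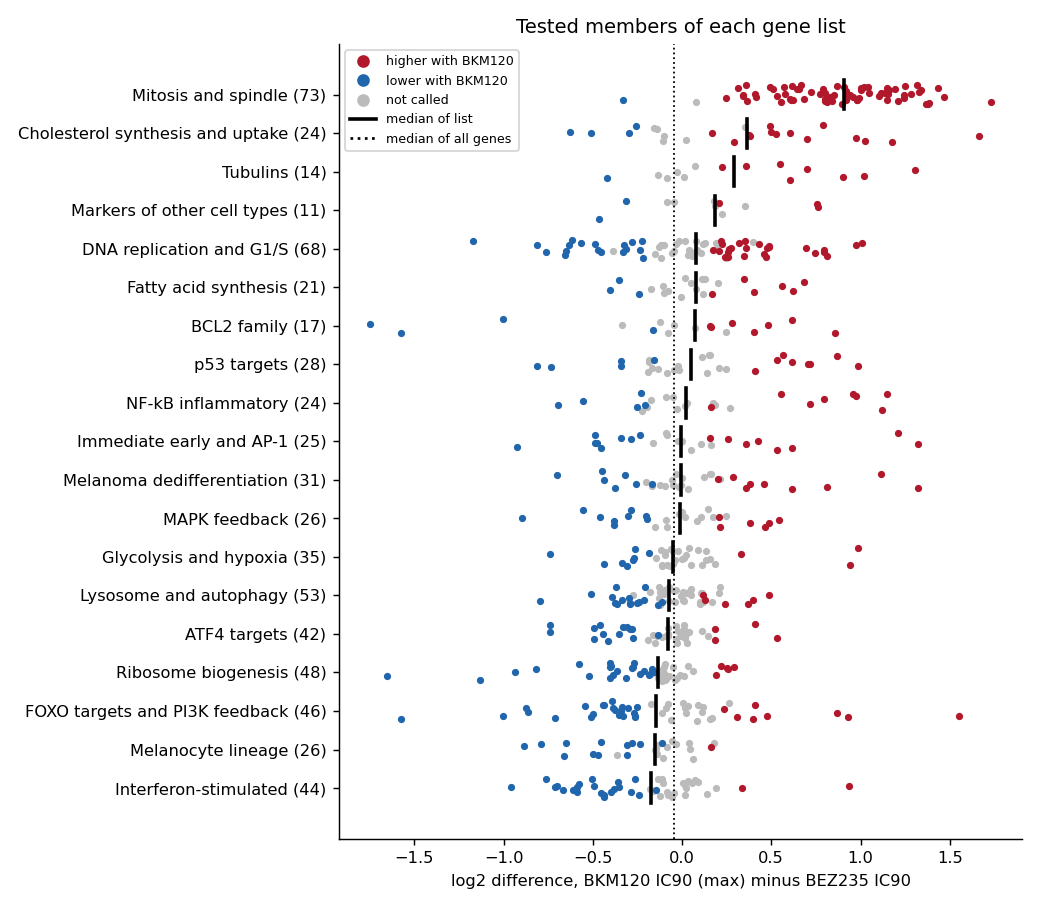
Difference between BKM120 at IC90 (max) and BEZ235 at IC90 for each tested member of the 19 gene lists (log2, horizontal axis; number of tested members in brackets). Red points were called higher, blue points lower and grey points neither; black bars are list medians and the dotted line is the median of all genes tested. The mitosis list, with a median of 0.91, stands to the right of the other lists.

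Promoters of mitotic genes are shown because many such genes share a pair of elements, the cell cycle genes homology region (CHR, searched as TTTGAA) and the CCAAT box (searched as CCAAT), both searched on both strands. The windows run from 250 bases before to 50 after the transcription start in RefSeq on GRCh38.p14. Capitals mark matches, and a match on the opposite strand reads TTCAAA or ATTGG. The first 3 sequences are members of the mitosis list with large differences, GTSE1 (chr22:46296620-46296919, plus strand), KIFC1 (chr6:33391573-33391872, plus strand) and CDCA8 (chr1:37692266-37692565, plus strand). The others belong to the list of DNA replication genes, ASF1B (chr19:14136540-14136839, minus strand), higher with BKM120, and CDT1 (chr16:88803539-88803838, plus strand), lower with BKM120.
GTSE1: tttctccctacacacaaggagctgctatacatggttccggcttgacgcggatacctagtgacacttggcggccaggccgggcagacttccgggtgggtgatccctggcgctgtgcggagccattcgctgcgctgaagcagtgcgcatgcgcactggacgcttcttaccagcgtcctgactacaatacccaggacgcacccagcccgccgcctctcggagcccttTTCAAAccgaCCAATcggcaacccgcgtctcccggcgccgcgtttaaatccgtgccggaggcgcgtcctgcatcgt
KIFC1: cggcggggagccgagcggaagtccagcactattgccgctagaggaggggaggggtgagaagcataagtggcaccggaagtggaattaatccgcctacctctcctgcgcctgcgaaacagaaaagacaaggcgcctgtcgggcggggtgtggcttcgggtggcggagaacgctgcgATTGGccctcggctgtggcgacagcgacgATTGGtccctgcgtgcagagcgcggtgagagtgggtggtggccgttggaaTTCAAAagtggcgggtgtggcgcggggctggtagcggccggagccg
CDCA8: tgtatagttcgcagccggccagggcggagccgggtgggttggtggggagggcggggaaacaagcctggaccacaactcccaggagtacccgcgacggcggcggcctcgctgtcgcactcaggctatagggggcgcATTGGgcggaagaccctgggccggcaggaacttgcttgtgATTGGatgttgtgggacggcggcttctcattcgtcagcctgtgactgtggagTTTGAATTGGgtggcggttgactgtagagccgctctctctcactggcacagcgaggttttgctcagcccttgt
ASF1B: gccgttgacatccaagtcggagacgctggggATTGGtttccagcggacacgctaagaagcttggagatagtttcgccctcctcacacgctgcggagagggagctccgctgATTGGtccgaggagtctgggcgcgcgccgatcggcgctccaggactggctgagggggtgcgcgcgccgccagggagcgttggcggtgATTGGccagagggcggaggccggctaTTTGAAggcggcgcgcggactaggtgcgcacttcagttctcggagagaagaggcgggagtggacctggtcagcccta
CDT1: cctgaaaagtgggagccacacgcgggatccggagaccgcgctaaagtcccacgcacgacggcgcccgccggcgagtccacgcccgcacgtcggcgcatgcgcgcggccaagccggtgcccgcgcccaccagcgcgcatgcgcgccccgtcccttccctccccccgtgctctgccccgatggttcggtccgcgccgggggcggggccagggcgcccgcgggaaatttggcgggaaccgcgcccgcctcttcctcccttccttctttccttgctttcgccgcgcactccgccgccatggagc
In CDCA8 a CHR match and an ATTGG match share a base, and CDT1 holds neither element in this window. Of the 60 mitosis genes with a promoter in the table, 38 (63.3%) held TTTGAA, against 9.91% of the 9780 promoters of tested genes and 15.4% of all 27305 promoters. CCAAT was found in 44 of the 60 (73.3%), against 36.9% of the promoters of tested genes. Both stood together in 32 (53.3%), against 4.1%. Of 58 promoters of the DNA replication list, 2 (3.45%) held TTTGAA and 34 (58.6%) CCAAT. ASF1B is 1 of those 2, so the sequences of ASF1B and CDT1 do not represent their list.

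Genes of DNA replication and of the G1/S transition differed in both directions. Of 68 tested members, 26 were higher (38.2%, against 18.5% of all genes) and 18 lower with BKM120 (26.5%, against 26.7%), with a median of 0.08. The median deviation of the list from its mean over the 40 arrays was -0.09 to -0.04 in the BKM120 arrays, -0.17 to -0.13 in the BEZ235 arrays and 0.11 to 0.15 in the DMSO arrays, and no groups overlapped. Both compounds had more members below DMSO than above: 33 lower and 2 higher with BKM120, 40 lower and 7 higher with BEZ235 (of all genes, 17.3% lower and 17.3% higher, and 24.1% lower and 30.8% higher). CDT1, the factor that licenses replication origins, had 6.76, 6.74, 6.46 and 6.73 with BKM120 and 7.83, 7.61, 7.98 and 7.94 with BEZ235. All BEZ235 arrays were higher, and the difference was -1.17 (SE 0.09, adjusted p = 8e-13). CDT1 with BKM120 was at -0.02 against DMSO and with BEZ235 at 1.15. PRIM1, the primase catalytic subunit, was also lower with BKM120 (-0.81). GINS4, a subunit of the replicative helicase, was higher by 1.01, ASF1B, a histone chaperone, by 0.98, and TK1, the thymidine kinase of S phase, by 0.80.

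Tubulins, the subunits of microtubules, were examined one by one. Of 14 tested members, 8 were higher with BKM120 (57.1%, against 18.5% of all genes) and 1 lower (7.14%, against 26.7%), with a median of 0.29. That median ranged from 0.18 to 0.55 under alternative processing. TUBB2B, TUBB3 and TUBB4B were read from probe sets of cross-hybridising design, which may also read other tubulins. TUBA1A had 9.91, 9.61, 9.80 and 9.80 with BKM120 and 8.39, 8.49, 8.58 and 8.45 with BEZ235. BKM120 was at the level of DMSO (-0.02 against DMSO) and BEZ235 far below it (-1.33), so the difference between the compounds was 1.30 (SE 0.13). TUBB6 differed by 1.02, TUBD1, the delta tubulin, by 0.90, TUBG1, the gamma tubulin that starts microtubules, by 0.70, TUBB2A by 0.60, TUBB2B by 0.55 and TUBB4B by 0.36. TUBB3, the neuronal beta tubulin, differed by 0.23 (95% interval 0.10 to 0.35), and its groups overlapped. That call ended with median-centred arrays (0.15, adjusted p = 0.12). TUBB4A was lower with BKM120 (-0.42, SE 0.11), with a log2 signal of 5.49 to 5.80 with BKM120 and 5.83 to 6.20 with BEZ235. TUBB itself was not called, at 0.01 (95% interval -0.08 to 0.10, adjusted p = 0.89), and the other 2 of its 3 probe sets were lower with BKM120 without overlap (-0.17 and -0.21), so its direction depends on the probe set. TUBB2B was below DMSO with both compounds, at -0.90 with BKM120 and -1.45 with BEZ235.

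**Figure D2:**
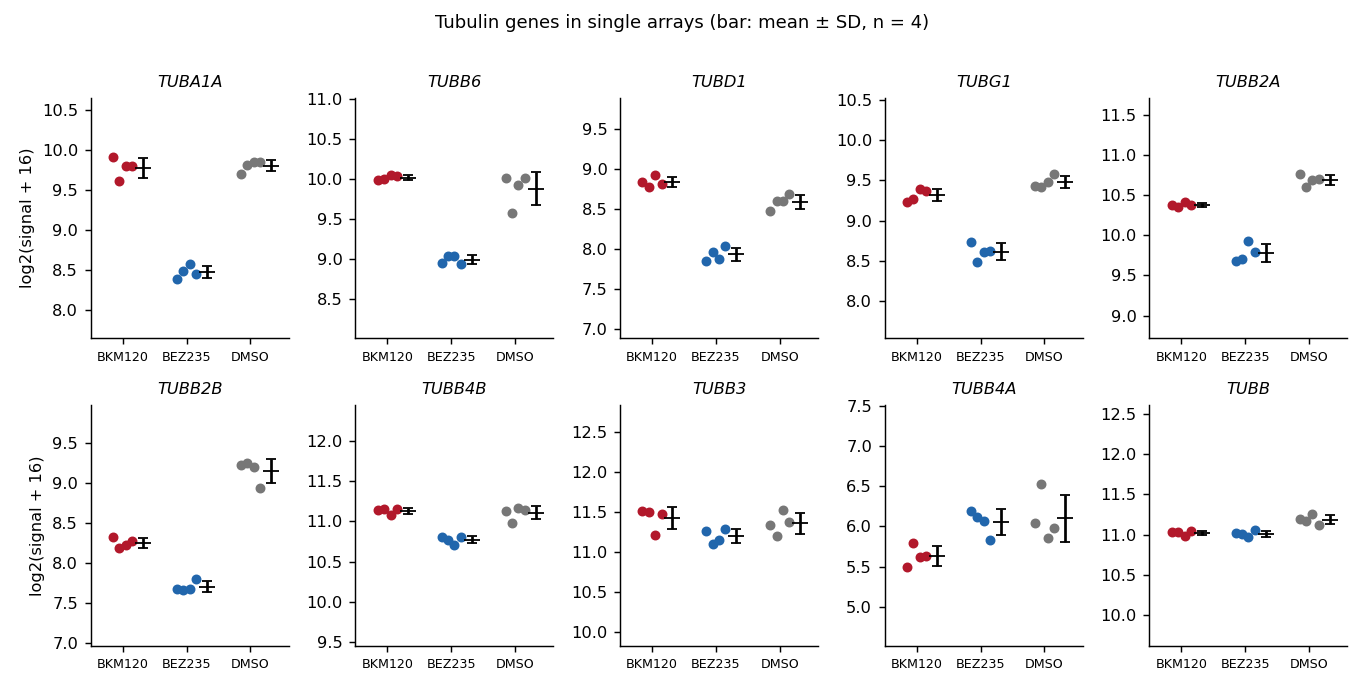
Log2(signal + 16) of 10 tubulin genes in each array of BKM120 at IC90 (max), BEZ235 at IC90 and DMSO (points), with the mean ± SD of 4 arrays (bars); each panel has its own axis range. BEZ235 arrays sit lowest in TUBA1A, TUBB6, TUBD1, TUBG1, TUBB2A, TUBB2B and TUBB4B, while TUBB is level between the compounds and TUBB4A is lower with BKM120.

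Genes of cholesterol synthesis and uptake were mostly higher with BKM120, and stood near DMSO in that group. Of 24 tested members, 14 were higher (58.3%, against 18.5% of all genes) and 4 lower (16.7%, against 26.7%), with a median of 0.36, and with BKM120 the median against DMSO was -0.01, with BEZ235 -0.19. STARD4, a carrier of cholesterol between membranes, had 7.11, 7.28, 7.14 and 7.19 with BKM120 and 5.49, 5.63, 5.57 and 5.38 with BEZ235. The difference was 1.66 (SE 0.08, adjusted p = 6.5e-19), with BKM120 at -0.13 and BEZ235 at -1.80 against DMSO. ACAT2, the cytosolic thiolase at the start of the pathway, had 9.89, 9.81, 9.94 and 9.85 with BKM120 and 8.63, 8.86, 8.67 and 8.62 with BEZ235, a difference of 1.18. HMGCS1, which makes HMG-CoA, differed by 1.02, INSIG1, which holds SREBP in the endoplasmic reticulum, by 0.98, DHCR7, the last enzyme of the pathway, by 0.79, and MSMO1, a sterol demethylation enzyme, by 0.70. Members lower with BKM120 were MYLIP, IDI1, NPC1 and TM7SF2. In the fatty acid list 6 of 21 members were higher and 3 lower (28.6% and 14.3%, against 18.5% and 26.7% of all genes; median 0.08), among them ELOVL6, a fatty acid elongase, at 0.68, and SREBF1, the gene of SREBP-1, at 0.56. TCACCCC, the core of a sterol regulatory element, was present in 2 of 22 promoters of the cholesterol list (9.09%), against 5.02% of those of tested genes.

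In the list of FOXO targets and genes of PI3K feedback more members were lower than higher with BKM120. Of 46 tested members, 8 were higher (17.4%, against 18.5% of all genes) and 22 lower (47.8%, against 26.7%), with a median of -0.15. The list's median against DMSO was 0.20 with BKM120 and 0.33 with BEZ235. BMF, a BH3-only gene of cell death, had 5.27, 5.61, 5.89 and 5.74 with BKM120 and 7.27, 7.26, 7.11 and 7.15 with BEZ235. BMF was higher than DMSO with both compounds, by 0.81 with BKM120 and by 2.38 with BEZ235, and the difference between them was -1.57 (SE 0.12, adjusted p = 3.1e-13). BCL2L11, which encodes the BH3-only protein BIM, averaged 7.21 with BKM120 and 8.21 with BEZ235, with BKM120 at -0.51 and BEZ235 at 0.49 against DMSO. INSR, the insulin receptor, a FOXO target, differed by -0.88, with BKM120 at 0.20 and BEZ235 at 1.08 against DMSO. PIK3R3, a regulatory subunit of PI3K, was higher with BKM120, with 7.87, 7.99, 8.01 and 8.02 for BKM120 and 6.40, 6.37, 6.56 and 6.36 for BEZ235, a difference of 1.55 (SE 0.15). It was below DMSO with both, at -0.41 with BKM120 and -1.96 with BEZ235. SESN3, a sestrin that restrains mTORC1, was likewise higher with BKM120 (0.93), and CDKN1A, the cell cycle inhibitor p21, by 0.87.

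HRK, another BH3-only gene, had 5.58, 5.73, 5.46 and 5.45 with BKM120 and 7.31, 7.19, 7.30 and 7.41 with BEZ235. The BKM120 arrays were at the DMSO mean of 5.58 and the BEZ235 arrays far above it, and the difference was -1.75 (SE 0.21), the largest of any named gene that was lower with BKM120. Within the BCL2 family, 7 of 17 tested members were higher (41.2%, against 18.5% of all genes) and 4 lower with BKM120 (23.5%, near the 26.7% of all genes). BAX, an effector of mitochondrial permeabilisation, was higher by 0.62 and BCL2, the anti-apoptotic founder of the family, by 0.48. The other probe set of BCL2 above the filter on low signal differed by 0.02, with overlap. Differences at probe sets above that filter also varied in size for HRK (-0.63 to -1.75), BCL2L11 (-0.09 to -1.001) and INSR (-0.10 and -0.88), without a change of sign.

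**Figure D3:**
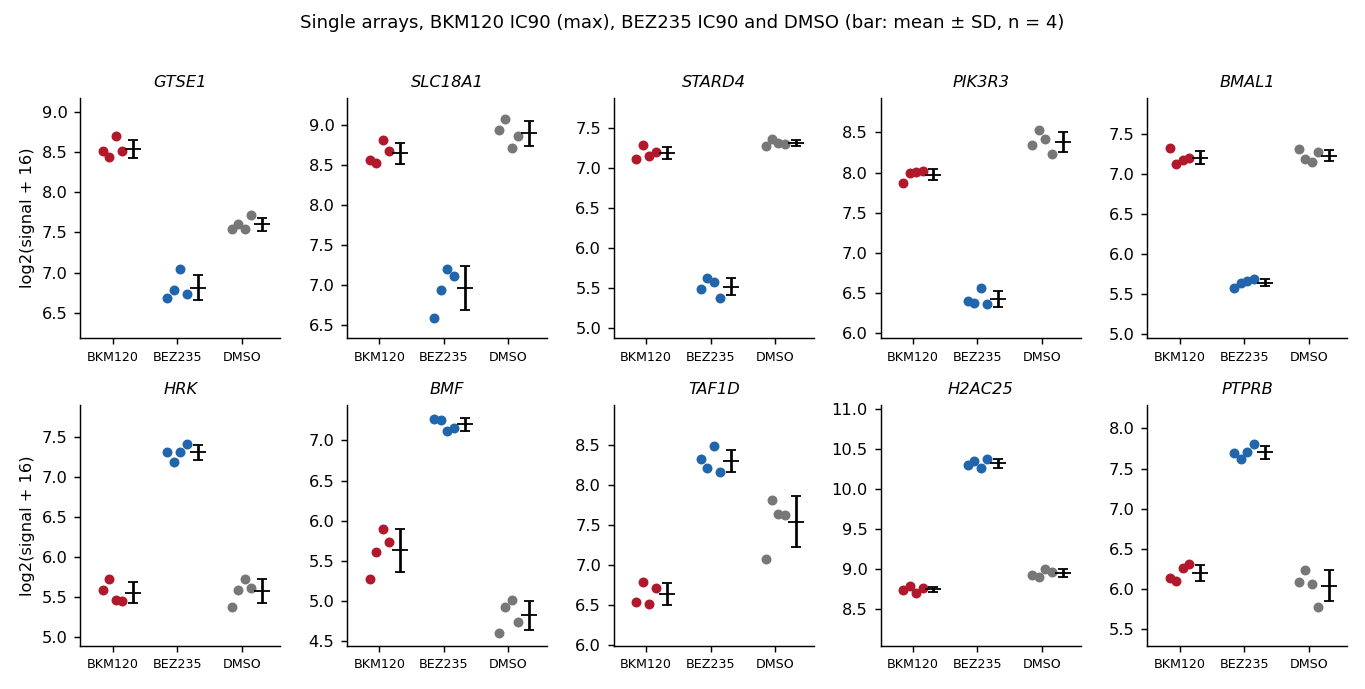
Log2(signal + 16) of 10 genes in each array of BKM120 at IC90 (max), BEZ235 at IC90 and DMSO (points), with the mean ± SD of 4 arrays (bars); each panel has its own axis range. In each panel the BKM120 and BEZ235 arrays do not overlap, as the rule for naming genes required. BKM120 sits near DMSO in STARD4, BMAL1, HRK and PTPRB, and above DMSO in GTSE1.

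Genes of ribosome biogenesis were lower with BKM120 in 22 of 48 tested members (45.8%, against 26.7% of all genes) and higher in 5 (10.4%, against 18.5%), with a median of -0.14. TAF1D, a subunit of the RNA polymerase I initiation factor SL1, had 6.54, 6.79, 6.51 and 6.72 with BKM120 and 8.32, 8.21, 8.48 and 8.16 with BEZ235. Against DMSO it moved in opposite directions, at -0.90 with BKM120 and 0.76 with BEZ235. NOB1, an endonuclease that finishes the small ribosomal subunit, differed by -1.13 and POLR1E, a subunit of RNA polymerase I, by -0.93, and in both BKM120 was at -0.03 against DMSO. RRP12, a factor of ribosome export, differed by -0.82. MYC, a transcription factor that drives these genes, was lower with BKM120 (-0.92, SE 0.13), with BKM120 at 0.11 and BEZ235 at 1.03 against DMSO.

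Amino acid stress genes under ATF4 were lower in 14 of 42 tested members (33.3%, near the 26.7% of all genes) and higher in 4 (9.52%, against 18.5%; median -0.08), and were below DMSO with both compounds, by medians of -0.48 with BKM120 and -0.43 with BEZ235. DDIT3, the stress factor CHOP, had 6.38, 6.29, 6.12 and 6.13 with BKM120 and 7.20, 6.88, 6.99 and 6.83 with BEZ235. The difference was -0.74, with BKM120 at -0.68 and BEZ235 at 0.06 against DMSO. TRIB3, a pseudokinase, differed by -0.46. Genes of glycolysis and hypoxia were higher in 3 of 35 members (8.57%, against 18.5% of all genes) and lower in 8 (22.9%, near the 26.7% of all genes). TIGAR, a fructose bisphosphatase, was higher by 0.98 and SLC2A1, the glucose transporter GLUT1, by 0.94, with SLC2A1 at -0.07 with BKM120 and -1.01 with BEZ235 against DMSO. VEGFA, the angiogenic factor, was lower (-0.74), but its probe sets disagreed, and the mean over them was not called (-0.18, adjusted p = 0.12). In the p53 list 8 of 28 were higher (28.6%, against 18.5% of all genes) and 5 lower (17.9%, against 26.7%). TP53INP1, a stress-induced nuclear protein, was higher by 0.71, and CYFIP2, a partner of the WAVE complex, and ZMAT3, an RNA-binding protein, were lower (-0.81 and -0.74).

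The immediate early and AP-1 list was split, with 8 of 25 members higher and 8 lower (18.5% and 26.7% of all genes) and a median of -0.00. EGR1, an immediate early transcription factor, had 10.24, 10.24, 10.26 and 10.21 with BKM120 and 9.04, 9.17, 8.95 and 8.95 with BEZ235, with a mean of 8.47 in DMSO. Both compounds stood above DMSO and BKM120 stood above BEZ235, by 1.21. JUN, a subunit of AP-1, had 6.75, 6.49, 6.68 and 6.68 with BKM120 and 5.28, 5.24, 5.38 and 5.43 with BEZ235. BKM120 was at 0.03 against DMSO and BEZ235 at -1.29, and the compounds differed by 1.32. FOSL1, another AP-1 subunit, was higher by 0.61. Among the genes of MAPK feedback, 6 of 26 were higher and 9 lower (23.1% and 34.6%, near the 18.5% and 26.7% of all genes). SPRY1, an inhibitor of receptor signalling, was lower (-0.89), and EPHA2, a receptor tyrosine kinase, was higher by 0.54.

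Inflammatory genes under NF-kB were higher in 8 of 24 tested members (33.3%, against 18.5% of all genes) and lower in 5 (20.8%, against 26.7%), with a median of 0.02. CXCL8, a neutrophil chemokine, had 7.86, 7.86, 7.79 and 7.69 with BKM120 and 6.75, 6.70, 6.38 and 6.89 with BEZ235. BKM120 was at -0.50 and BEZ235 at -1.62 against DMSO, and the compounds differed by 1.12. IL11, a cytokine of the IL6 family, differed by 1.15, CCL2, a monocyte chemokine, by 0.97, and the neutrophil chemokines CXCL1 and CXCL3 by 0.96 and 0.79. IL32, a pro-inflammatory cytokine, differed by 1.51, with 5.76, 6.15, 6.29 and 5.90 with BKM120 and 5.15, 4.31, 4.32 and 4.29 with BEZ235.

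Melanocyte lineage genes were lower with BKM120 in 12 of 26 tested members (46.2%, against 26.7% of all genes) and higher in 1 (3.85%, against 18.5%), with a median of -0.15, and stood above DMSO by medians of 0.17 with BKM120 and 0.44 with BEZ235. MLANA, a melanosome antigen, had 9.06, 9.14, 9.21 and 9.23 with BKM120 and 9.77, 9.86, 9.77 and 9.88 with BEZ235. Both compounds raised it, by 1.02 with BKM120 and by 1.68 with BEZ235, and the difference was -0.66. OCA2, a melanosome transporter, differed by -0.88 and IRF4, a transcription factor of pigment cells, by -0.79. In the dedifferentiation list 9 of 31 were higher (29%, against 18.5% of all genes) and 7 lower (22.6%, near the 26.7% of all genes). LOXL2, a lysyl oxidase, was higher by 1.12 and NGFR, a neural crest receptor, by 0.81.

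Interferon-stimulated genes were lower with BKM120 in 22 of 44 tested members (against 26.7% of all genes) and higher in 2 (4.55%, against 18.5%), with a median of -0.17. With BKM120 the median against DMSO was -0.02, with 10 members higher and 10 lower, and with BEZ235 it was 0.28, with 26 higher and 8 lower. Of all genes, 17.3% were higher and 17.3% lower than DMSO with BKM120, and 30.8% higher and 24.1% lower with BEZ235. HERC5, the ligase of the ubiquitin-like ISG15, had 7.89, 7.98, 7.96 and 7.90 with BKM120 and 8.85, 8.97, 8.90 and 8.84 with BEZ235, a difference of -0.96. IFIT2, an RNA-binding antiviral protein, differed by -0.76 and RSAD2, the antiviral enzyme viperin, by -0.71. GBP1, a guanylate-binding protein, was higher with BKM120 by 0.94. In the lysosome and autophagy list 16 of 53 were lower (30.2%, near the 26.7% of all genes) and 6 higher (11.3%, against 18.5%). RRAGD, a GTPase that brings mTORC1 to the lysosome, differed by -0.79 and HEXA, a lysosomal hexosaminidase, by -0.51.

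Of 11 tested markers of other cell types, 3 were higher (27.3%, against 18.5% of all genes) and 2 lower (18.2%, against 26.7%). They included MYH11, smooth muscle myosin, at 0.76, COL1A1, a fibroblast collagen, at 0.76, and KRT18, an epithelial keratin, at -0.47. Other probe sets of COL1A1 above the filter on low signal differed by 0.41 and 0.05, both with overlap. Those of MYH11 differed by -0.05 to 0.84. The part of these markers in the other results was not tested.

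The 15 largest differences in each direction include genes outside the lists. NT5DC4, of the 5-prime nucleotidase domain family, had 7.22, 7.21, 7.33 and 7.27 with BKM120 and 4.94, 4.75, 4.95 and 5.01 with BEZ235, a difference of 2.34 (SE 0.11, adjusted p = 5e-19). EBLN2, derived from an ancient bornavirus insertion, had 7.47, 7.37, 7.64 and 7.42 with BKM120 and 5.42, 5.21, 5.005 and 5.13 with BEZ235, a difference of 2.29. In both genes BEZ235 was near DMSO (-0.24 and -0.22, not called) and BKM120 alone stood apart. The same order held for RAB11FIP3, an endosome recycling factor, which differed by 1.81, for EIF3C, a translation initiation factor, by 1.80, for ARF1, a GTPase of the Golgi, by 1.79, for GTF2H2B, a copy of a TFIIH subunit gene, by 1.74, and for the probe set annotated to SNORA21, by 1.66. EBLN2, EIF3C, ARF1, GTF2H2B and SNORA21 each rest on a single probe set above the filter, as does NT5DC4. The other 2 probe sets of NT5DC4 were dim and did not differ. ARF1 was near the limit of the filter outside the BKM120 group, averaging 4.70 with BEZ235 and 5.04 in DMSO, beside 6.49 with BKM120. The filter used brightness over all arrays. Over the arrays outside the BKM120 IC90 group, the mean of ARF1 lay just under the limit so set. ARF1 was thus tested only through the group where it was high, and its difference is given as description only. RAB11FIP3 rests on the brightest of 3 probe sets above the filter on low signal, and the others differed by 0.25 and 0.42, the last with overlapping groups. EIF3C and GTF2H2B have near-identical copies in the genome, so their signal cannot be assigned to 1 copy. Which transcripts the probe sets of this paragraph read was not checked, so the coding messages of EIF3C and ARF1 may not be what differed.

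In some other genes, among them SLC18A1, BMAL1 and H2AC25, BKM120 was near DMSO and BEZ235 apart from it. The remaining genes of this paragraph were not picked for that order, and SH3RF2 and FAXDC2 did not have it. SLC18A1, a vesicular monoamine transporter, had 8.56, 8.53, 8.80 and 8.67 with BKM120 and 6.59, 6.94, 7.21 and 7.12 with BEZ235, with BKM120 at -0.25 and BEZ235 at -1.93 against DMSO. BMAL1, a core circadian transcription factor, differed by 1.56, with BKM120 at -0.02 and BEZ235 at -1.59. SH3RF2, a ring finger protein, lay above DMSO with BKM120 (0.56) and below it with BEZ235 (-1.17). On the lower side, H2AC25, a histone H2A gene, had 8.74, 8.78, 8.71 and 8.76 with BKM120 and 10.29, 10.35, 10.26 and 10.38 with BEZ235. BEZ235 was 1.37 above DMSO and BKM120 was at -0.20. PTPRB, a receptor tyrosine phosphatase, averaged 6.20 with BKM120 and 7.70 with BEZ235. ICA1, an islet autoantigen of the secretory pathway, differed by -1.40, BCAN, the proteoglycan brevican, by -1.45 and ANXA2R, the annexin A2 receptor, by -1.39. FAXDC2, of the fatty acid hydroxylase family, was above DMSO with both compounds, by 1.07 with BKM120 and 2.67 with BEZ235. The probe set annotated to MIR146A, which does not measure the mature miRNA, differed by -1.70, and a dimmer one by -0.52 with overlap. The other probe sets of ICA1 above the filter on low signal differed by -0.35 and -0.36. ZNF581, IGDCC4, EPB41L4A and the antisense genes SLCO4A1-AS1 and ZNF790-AS1 differed by -1.41 to -1.64.

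The difference between the compounds was then compared between IC90 and IC50, in an interaction in which no array enters at both levels. One array of the BEZ235 IC50 group, replicate 3, had outlying control ratios (actin 27.2, GAPDH 3.44). Degraded RNA and poor labelling cannot be told apart here. Values at IC50 are therefore also given from the other 39 arrays. At IC50, 3825 genes (32.2%) differed between BKM120 and BEZ235, 15.5% higher and 16.8% lower, 34 of them (0.287%) by at least 2-fold, and with 39 arrays 3688 differed, 22 of them by at least 2-fold. The difference changed between the levels for 2923 genes (24.6%), 1167 upward (9.84%) and 1756 downward (14.8%), 179 of them (1.51%) by at least 2-fold, and with 39 arrays for 3478, 1305 upward and 2173 downward. Of the genes called at IC90, 2088 (39%) were also called at IC50, which is 54.6% of those called at IC50. Of these, 1804 had the same direction at both levels and 284 the opposite one (2083 and 343 with 39 arrays). BKM120 at IC90 also differed from BEZ235 at its max level in 5710 genes (48.1%), 288 of them (2.43%) by at least 2-fold. At that level the dose names differ, and the values stand side by side.

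The mitosis list changed most with level. Its median difference was 0.11 at IC50, 0.91 at IC90 and 0.90 between the highest levels of both compounds. An upward interaction was called for 65 of 73 members and a downward one for 0, against 9.84% and 14.8% of all genes. With 39 arrays the IC50 median was 0.18, and 68 members had an upward interaction, against 1305 of all 11865 genes. At IC50, 24 members were higher and 6 lower (15.5% and 16.8% of all genes), and with 39 arrays 32 and 3 (1930 and 1758 of 11865 genes). GTSE1 at IC50 differed by 0.08 (95% interval -0.10 to 0.26) and KIFC1 by -0.04 (-0.30 to 0.22), which were not called, and with 39 arrays by 0.15 and 0.20, also not called. Other mitotic genes named above were called at IC50 with 39 arrays: PIMREG (0.47), SGO2 (0.38), CDCA8 (0.36) and CENPA (0.26). The cholesterol list kept its difference, with medians of 0.49 at IC50 and 0.36 at IC90. In the interaction 1 of its 24 members was upward and 5 downward (9.84% and 14.8% of all genes), and 0 and 5 with 39 arrays. STARD4 differed by 1.44 at IC50, ACAT2 by 1.12 and INSIG1 by 0.99, and the interaction was not called for these genes (0.23, 0.05 and -0.02). PIK3R3 differed by 1.26 at IC50 and SESN3 by 1.08, also with no called interaction (0.29 and -0.15), but with 39 arrays the interaction of PIK3R3 was 0.53 (adjusted p = 0.0119) and its IC50 difference 1.02. MYC differed by -0.88 at IC50 and -0.92 at IC90 (interaction -0.04, not called).

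Some genes turned direction between the levels. EGR1 differed by -0.84 at IC50 and 1.21 at IC90, an interaction of 2.05. CCN2, a YAP target of the matrix, differed by -1.41 at IC50 and 0.46 at IC90, FOSL1 by -1.03 and 0.61, CXCL1 by -0.77 and 0.96, CXCL3 by -0.59 and 0.79, and EPHA2 by -0.58 and 0.54. SLC16A4, of the monocarboxylate transporter family, was higher with BKM120 at IC50 (0.51) and lower at IC90 (-1.06), as were NRN1, a neurite growth factor (0.47 and -1.08), PPARGC1A, a mitochondrial coactivator (0.65 and -0.80), and TUBB4A (0.54 and -0.42). With 39 arrays SLC16A4 was not called at IC50 (0.29, adjusted p = 0.0876). NRN1 fell to 0.23 at IC50 but was still called (limma adjusted p = 0.00822). The other genes of this paragraph that turned direction were also still called at both levels. HRK differed by -0.32 at IC50, not called, and by -0.78 with 39 arrays, where it was called. NT5DC4 and EBLN2 were not called at IC50, at -0.01 (95% interval -0.23 to 0.21) and 0.11 (-0.16 to 0.39).

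**Figure D4:**
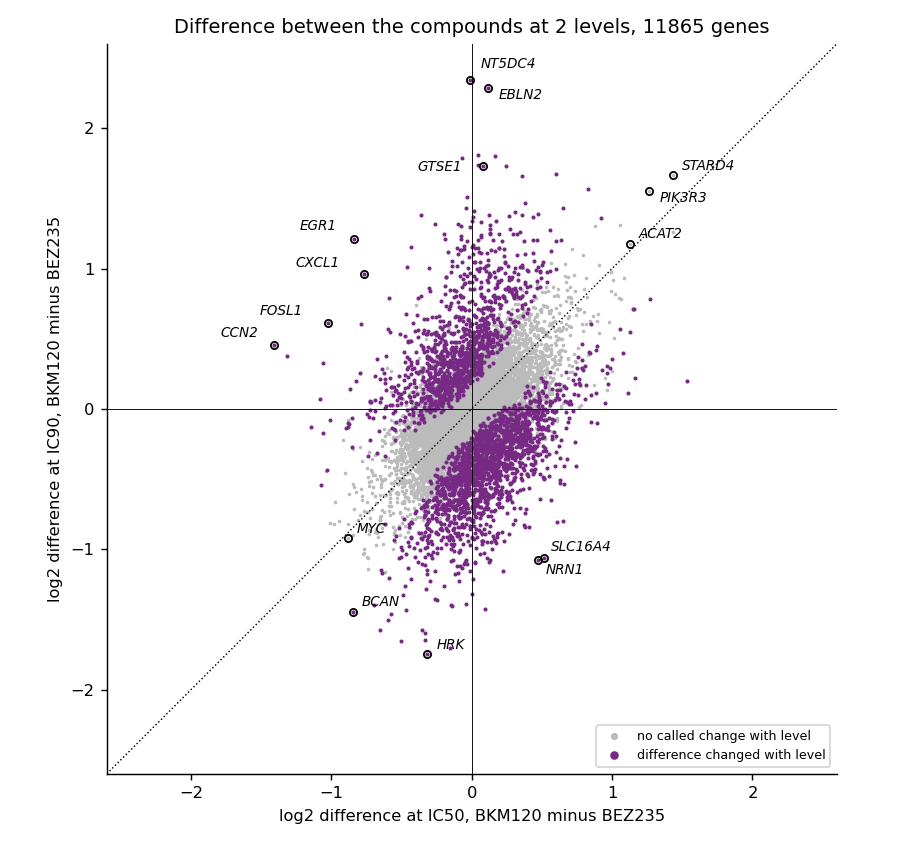
Log2 difference, BKM120 minus BEZ235, at IC50 (horizontal axis) and at IC90 (vertical axis) for 11865 genes; purple points had a called change between the levels, and the dotted line marks equal differences. STARD4, PIK3R3 and ACAT2 lie near the line, GTSE1, NT5DC4 and EBLN2 lie near 0 at IC50, and EGR1, CXCL1, FOSL1 and CCN2 turn from lower to higher.

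**Figure D5:**
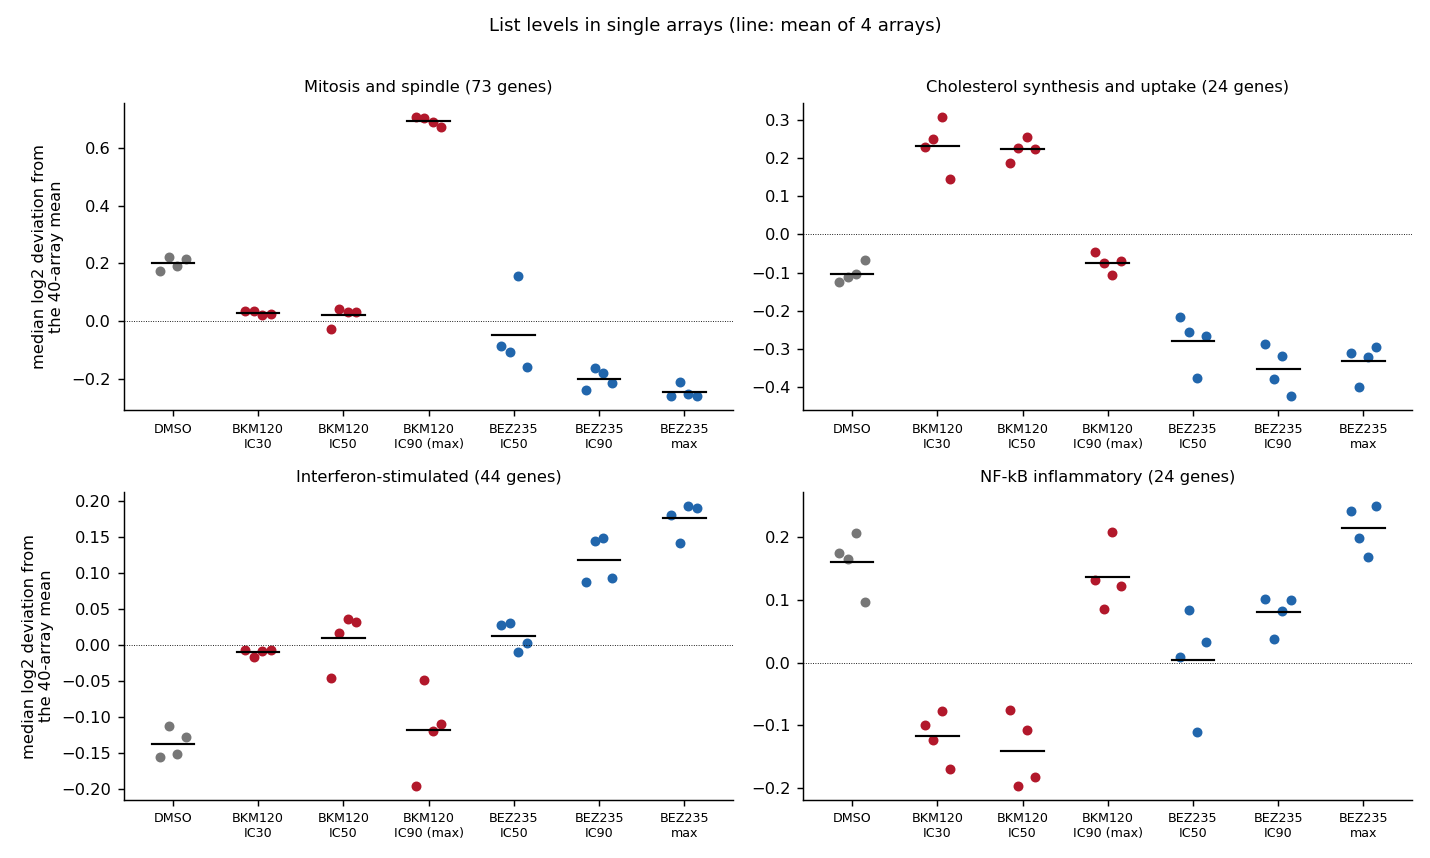
Median log2 deviation of 4 gene lists from the mean of all 40 arrays, in each array of DMSO and of each level of BKM120 and BEZ235 (points; lines are means of 4 arrays). The mitosis list is highest in the BKM120 IC90 (max) arrays, at 0.67 to 0.71, and the cholesterol list is lower in every BEZ235 group than in any BKM120 group.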

How the data were processed

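Cells were treated for 24 hours, and 50 ng of total RNA was amplified and biotin-labelled for 1-colour arrays, per the labels' protocols. The deposited intensity values came from MAS5 (no version stated), per the submitters' processing notes. They were linear and non-negative, and each array had been scaled so that its mean without the highest and lowest 2% of probe sets was 150. No further normalization was applied. Of 54675 probe sets, 41097 carried 1 gene symbol, 1801 several and 11777 none. A gene was read from its brightest probe set over all arrays, with cross-hybridising designs used only in the absence of others, and the filter at the 40th percentile of brightness left 11865 of 19775 genes. Values were transformed as log2(value + 16). limma 3.58.1 (R 4.3.3) fitted a mean for each of 10 groups over 40 arrays with a variance trend (30 residual degrees of freedom), with Benjamini-Hochberg adjustment over all genes of a comparison. The fit was tested on simulated data. The fit included 1 array with outlying control ratios, BEZ235 at IC50 replicate 3 (actin ratio 27.2, GAPDH ratio 3.44), which is not among the 8 compared. Precision is limited by the 4 arrays per group.

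Groups came from the labels. The 19 gene lists held 739 members, 693 named on the array and 632 tested, and they are described by counts and medians. The comparison, its members and the lists were chosen with earlier results of these data known. Genes could be named when called with all 4 values of a group beyond all 4 of the other: the 15 largest in each direction, up to 6 per list, all tubulins, and up to 6 in each direction of the interaction, without placeholder symbols. The rule allowed 138 genes, of which 102 were followed, a choice made after their values were seen. BUB3, TOP2A and the 4 cholesterol genes lower with BKM120 are named outside it, as counts of 5 or fewer. The printed promoters were chosen after the matches were seen. Alternatives changed the pseudocount, filter, scaling, probe set rule, replicate block, variance trend, arrays in the fit, or left out 1 array. Same-numbered replicates were not paired: their deviations correlated at -0.05 to 0.05.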

Additional observations from a re-analysis of the deposited data

Results flagged for a closer look

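In 10 of the 204 sets of 4 arrays examined (102 genes in 2 groups), 1 array lay apart from the other 3 by more of the range than Dixon's 95% limit; chance gives about 5% of sets. With BKM120, replicate 3 was the array apart in CDT1 (6.46), TUBB3 (11.2), TUBB4B (11.1), TUBB (10.98) and TRIB3 (6.62), and replicate 1 in TK1 (9.15). With BEZ235, the arrays apart were replicate 1 in IL32 (5.15, the other 3 at 4.29 to 4.32), replicate 2 in SLCO4A1-AS1 (8.63) and in BCL2 (7.90), and replicate 4 in TUBB2B (7.80). The calls of these genes without that array are among the alternatives reported with the processing.

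The compound difference changed between the IC50 and the IC90 level in 81 of the 102 genes followed, against 24.6% of all genes tested. The genes followed were named for their differences at IC90, some for this change itself, so a larger share follows from that choice. Of the 81, those listed here are the genes named for this change and the genes called in opposite directions at the 2 levels. This limit was set after the number was seen. The change, IC90 minus IC50, was upward for NT5DC4 (2.35), EBLN2 (2.17), EGR1 (2.05), CCN2 (1.86), ARF1 (1.86), RAB11FIP3 (1.76), CXCL1 (1.73), FOSL1 (1.64), CXCL3 (1.38) and EPHA2 (1.13). It was downward for SLC16A4 (-1.58), MIR146A (-1.55), NRN1 (-1.55), ZNF790-AS1 (-1.52), PPARGC1A (-1.45), HRK (-1.43) and TUBB4A (-0.96). These values include BEZ235 IC50 replicate 3. Without that array all kept their direction, with HRK at -0.97, SLC16A4 at -1.36 and NRN1 at -1.31. EIF3C and GTF2H2B, not listed, then stood at 1.80 and 2.15, beside 1.72 for RAB11FIP3. ARF1 passed the filter on low signal only through its BKM120 IC90 arrays, so its change is description only.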

How the results depend on the processing

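The 5360 calls at IC90 became 5289 with the replicate number as a block (5259 genes shared), 6349 without the array with outlying control ratios and 6526 from the 8 arrays alone. Leaving out 1 array at a time gave 4864 to 4996 calls, 1961 to 2050 higher, 2870 to 2996 lower and 202 to 213 of at least 2-fold. For the change between levels, leaving out each array but BEZ235 IC50 replicate 3 gave 2565 to 3292 calls, 1011 to 1437 upward, 1525 to 1855 downward and 169 to 206 of at least 2-fold. Leaving out that array, the one with outlying control ratios, gave values beyond most of these ranges, with 3478 calls, 1305 upward, 2173 downward and 140 of at least 2-fold. The block left 2885 such calls. The count of 208 genes with at least a 2-fold difference was 445 with a pseudocount of 1, 69 with 64 and 102 with a filter at the 60th percentile, and the matching 179 for the change between levels was 389, 52 and 88. By construction a larger pseudocount shrinks differences of dim genes and a higher filter tests fewer genes. That filter left 2063 genes lower at IC90 and 1123 downward changes. Centring arrays on their medians left 1439 genes higher and 715 upward changes, and moved the median of all genes to -0.12. Of 1891 gene results under alternatives, 1886 kept direction and call. Most genes followed were named because they were called without overlap in the same 8 arrays. Leaving out 1 array could therefore not reverse their direction. The block, the variance trend and the arrays in the fit left the differences themselves unchanged. A gene that an alternative filtered out gave no result and is not counted. The share kept is thus no independent support. TUBB3 (0.15, adjusted p = 0.12, median-centred) and VEGFA (-0.18, adjusted p = 0.12, mean over probe sets) lost their calls. TUBB, not called, turned to -0.071 (median-centred), -0.125 (mean over probe sets, adjusted p = 0.0442) and -0.0064 (without BEZ235 IC90 replicate 3), and was at -0.0064 to 0.025 over the arrays left out. The mitosis median stayed between 0.78 and 0.94, and the cholesterol median between 0.25 and 0.39. The tubulin median ranged from 0.18 to 0.55. The p53, DNA replication, fatty acid, BCL2 and NF-kB medians fell below 0 under at least 1 alternative (lowest -0.03, -0.0008, -0.0013, -0.02 and -0.20). Genes near the filter are close to background, where 4 arrays give little power.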
